A study of Mus musculus with 4 samples.

Results

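The myometrium, the smooth muscle of the uterine wall, was followed through 36 genes of its contractile apparatus and the receptor for oxytocin in whole mouse uteri taken at day 4 of pregnancy. The genes were taken by symbol from a deposited table of 54152 gene symbols. All 36 were present in it, and all 36 were among the 18530 genes that passed the filter on low counts. RNA sequencing gave 2 libraries of uteri labelled P38α dd and 2 of uteri labelled P38α ff, all of strain C57 and all at day 4. The title of the series speaks of p38α knockout and wild-type uteri, where p38α is the stress-activated kinase encoded by Mapk14. The sources used here do not give the promoter of any Cre, the cells in which the gene was deleted, the deleted exons, the age of the mice or whether each replicate came from an animal of its own. A p-value here thus reflects only how far these libraries spread, which may be technical.

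Smooth muscle contracts when calcium, bound to calmodulin, activates myosin light chain kinase, which phosphorylates the regulatory light chain and lets myosin pull on actin. Myosin phosphatase reverses this step, and certain kinases and inhibitor proteins hold the phosphatase back. Oxytocin raises calcium in uterine muscle through its receptor, potassium channels quieten the muscle membrane, and gap junctions couple the muscle cells, which are kept quiescent through most of pregnancy. Transcription of the contractile genes is driven in many smooth muscles by serum response factor and its cofactor myocardin.

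The libraries held between 24619850 and 32451670 counts. Mapk14 itself had 2481 and 3429 counts in dd and 3074 and 2710 in ff and was not called (log2 fold change 0.28, SE 0.09, edgeR adjusted p = 0.12), so its level does not back the labels, and dd and ff below mean the libraries labelled so. A sum over all exons cannot reveal that some of them were lost. Acta2, the actin most used as a smooth muscle marker, was high in every library, between 1265 and 2072 FPKM. Its mean was 1536 FPKM, rank 14 of the 54152 symbols. Not all muscle genes were high: Tagln averaged 5.60 FPKM (rank 8015) and Myocd 1.10 FPKM (rank 13832). The 36 members took 2.65% and 1.71% of all counts in dd replicates 1 and 2, against 2.19% and 1.93% in ff replicates 1 and 2. The widest gap was therefore between the dd libraries. Results without each of them are given for the called members, for Acta2 and Actg2, and for the median of the members.

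Of the 36 members, 3 were called between dd and ff (8.33%), close to the share of all tested genes that were called, 8.39%. Oxtr, the oxytocin receptor gene, and Kcnmb1, a regulatory subunit of the large-conductance calcium-activated potassium channel, rose in dd (2 of 36, against 4.52% of all tested genes). Ppp1r14a, an inhibitor of myosin phosphatase, fell (1 of 36, against 3.86%). The DESeq2 Wald test called 4 of 36 members, against 16.2% of all tested genes: 2 higher, against 8.55%, and 2 lower, against 7.65%. At an unadjusted edgeR p under 0.05 there were 4 members, the 3 named and Gja1, against 29.3% of all tested genes. The other 33 members were not called, with log2 fold changes between −0.84 and 0.56 and adjusted p between 0.154 and 0.998. For 25 of these 33, the 95% interval of the log2 fold change lay between −1 and 1, and for the other 8 it reached further. The median log2 fold change was 0.16 over the 36 members and 0.00223 over all tested genes, and 21 members lay above 0 and 15 below. In whole uteri, a different number of muscle cells and a different amount of RNA per muscle cell cannot be told apart.

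**Figure D1:**
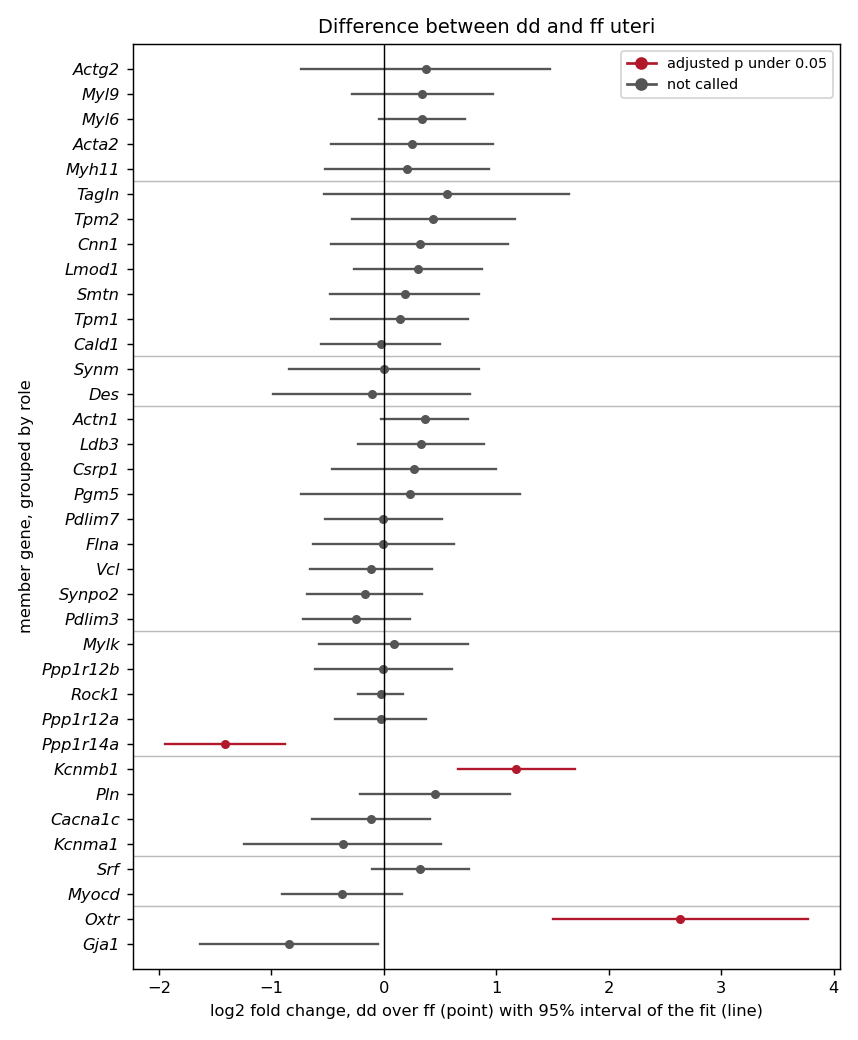
Log2 fold change of each of the 36 members, dd over ff (horizontal axis), with the 95% interval of the edgeR fit as a line, grouped by role down the page. Oxtr, Kcnmb1 and Ppp1r14a (red) were called at an adjusted p under 0.05, and the points of the other 33 members lie between −0.84 and 0.56.

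Oxtr (chr6:112473683-112489943, mm10, minus strand) encodes the receptor through which oxytocin contracts the uterus, and it was the most changed member. It was measured at 62.6 and 26.8 CPM in the dd libraries, against 7.81 and 6.52 CPM in the ff libraries. Both dd libraries lay above both ff libraries, and the dd libraries were themselves far apart. The fold change was 6.23 (95% interval 2.84 to 13.7; log2 2.64, SE 0.44), which passed edgeR's quasi-likelihood test (adjusted p = 0.0367). For Oxtr the authors' deposited table lists a fold of 6.22 with unadjusted p = 8.43e-08. Oxtr passed without dd replicate 1, at a log2 fold change of 1.91, and without dd replicate 2, at 3.13, but not without ff replicate 1 (2.78, adjusted p = 0.123). It also missed the threshold when ff replicate 2 was left out (2.51, adjusted p = 0.0884).

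The bases upstream of the start of Oxtr are shown with those of the other 2 called members, as the RefSeq sequence on GRCm38.p6, read 5′ to 3′ on the strand of the gene. The motif bound by serum response factor is called the CArG box, here counted only as an exact CCWWWWWWGG, W being A or T. Neither this box nor the AP-1 motif TGANTCA was found in the 300 bases around the start of any of the 3. All letters are thus in lower case. The Oxtr window is chr6:112489944-112490075, the Kcnmb1 window chr11:33962863-33963012 and the Ppp1r14a window chr7:29289157-29289306.
Oxtr: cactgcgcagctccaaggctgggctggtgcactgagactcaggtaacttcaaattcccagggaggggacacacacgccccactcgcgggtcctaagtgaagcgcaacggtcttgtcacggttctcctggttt
Kcnmb1: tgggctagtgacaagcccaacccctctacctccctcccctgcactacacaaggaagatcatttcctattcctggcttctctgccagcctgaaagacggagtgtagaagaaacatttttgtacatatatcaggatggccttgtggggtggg
Ppp1r14a: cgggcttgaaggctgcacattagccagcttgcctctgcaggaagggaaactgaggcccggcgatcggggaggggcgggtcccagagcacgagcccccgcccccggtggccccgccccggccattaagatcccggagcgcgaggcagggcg

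Oxtr was also set against muscle genes of the same library, though the cells that held its RNA in these whole uteri are not known. For every 1000 counts of Myh11, the smooth muscle myosin heavy chain, there were 23.9 and 17.8 Oxtr counts in dd, against 4.40 and 3.61 in ff. The dd libraries were thus closer to each other on this scale than in CPM, and still above both ff libraries. Of 17 epithelial markers, 7 were called higher in dd, against 4.52% of all tested genes, and 0 lower, against 3.86%. Their summed level was 3834 and 4434 CPM in dd and 1698 and 1925 CPM in ff. Their part in the Oxtr values was not tested. When all libraries were scaled so that 14 filament members had the same geometric mean, a scaling chosen after seeing the data, the log2 fold change of Oxtr was 2.35 (edgeR adjusted p = 0.00167). The log2 fold changes of Kcnmb1 and Ppp1r14a under that scaling were 0.97 and −1.62, of the same sign as before, but neither was called (adjusted p = 0.562 and 0.0731). Oxt, the gene of the hormone, had 2 and 2 counts in dd and 3 and 0 in ff and was not tested.

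Gja1 (chr10:56377330-56402513, plus strand) encodes connexin 43, the gap junction protein that couples uterine muscle cells at labour and that stromal cells of the uterus also make. It was measured at 76.7 and 83.6 CPM in dd, against 187.5 and 99.6 CPM in ff. The dd libraries were alike and below both ff libraries, while ff replicate 1 stood well above ff replicate 2. For every 1000 counts of Myh11 there were 29.2 and 55.4 counts of Gja1 in dd, against 105.7 and 55.2 in ff, so on that scale the dd libraries were apart and the groups overlapped. The log2 fold change was −0.84 (SE 0.31) and was not called by edgeR (adjusted p = 0.154), whereas the DESeq2 Wald test called it (adjusted p = 0.0459). Without ff replicate 2 the log2 fold change was −1.23 and was called (edgeR adjusted p = 0.0213), and without ff replicate 1 it was −0.31 (edgeR adjusted p = 0.262). Of 17 stromal markers, 5 were called lower, against 3.86% of all tested genes, and 1, Pi16, higher, against 4.52%. Their summed level was 11564 and 8086 CPM in dd and 16817 and 14807 CPM in ff. Their part in the Gja1 values was not tested. An AP-1 motif, shown in capitals, starts at −19 relative to the RefSeq start of Gja1, in the window chr10:56377150-56377299.
Gja1: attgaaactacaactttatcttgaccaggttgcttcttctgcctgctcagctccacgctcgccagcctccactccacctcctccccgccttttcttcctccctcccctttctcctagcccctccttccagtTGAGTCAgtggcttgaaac

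**Figure D2:**
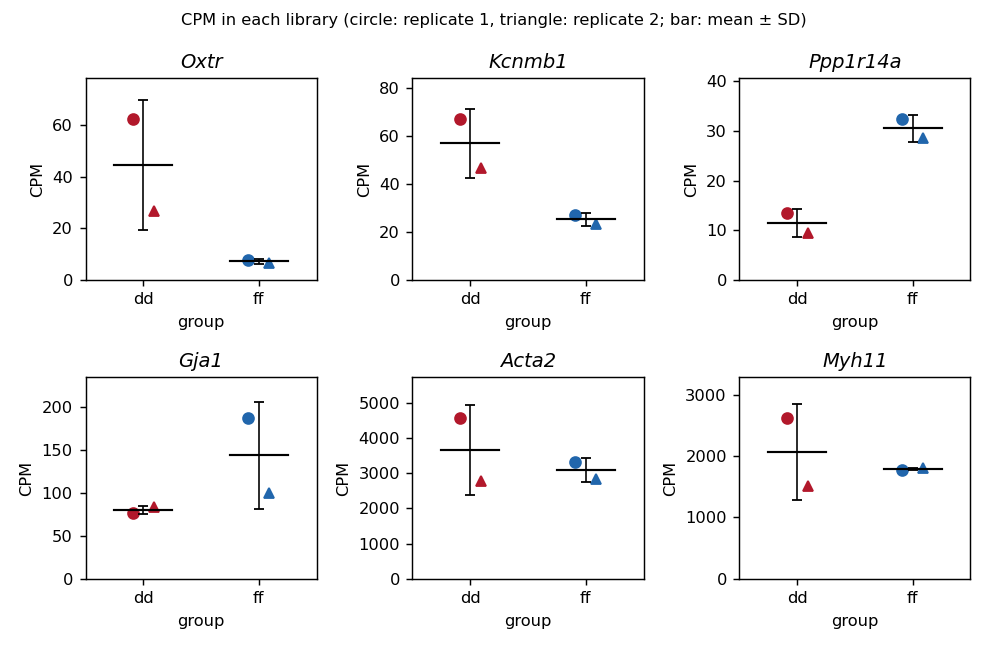
CPM (vertical axes, starting at 0) of 6 members in dd and ff uteri, with replicate 1 as a circle, replicate 2 as a triangle and the mean ± SD as bars (n = 2 each). Oxtr, Kcnmb1, Ppp1r14a and Gja1 show no overlap between the groups, as did 62.8% of all tested genes. Acta2 and Myh11 show dd replicate 1 above and dd replicate 2 below both ff libraries.

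Among the channel and calcium genes, Kcnmb1 (chr11:33963013-33973641, plus strand) stood apart. Its product is the beta subunit that makes the calcium-activated potassium channel of smooth muscle more sensitive to calcium. It was at 67.3 and 46.8 CPM in dd, against 27.0 and 23.4 CPM in ff, with no overlap, like 62.8% of all tested genes. The fold change was 2.26 (95% interval 1.58 to 3.24; log2 1.18, SE 0.20; edgeR adjusted p = 0.0383). In the authors' deposited table Kcnmb1 stands at a fold of 2.26 (unadjusted p = 0.0118). Kcnmb1 was still called when dd replicate 2 was left out (log2 1.42, adjusted p = 0.0421). It was not called in the absence of any other library, with log2 0.90 (adjusted p = 0.0634) lacking dd replicate 1, log2 1.28 (adjusted p = 0.107) lacking ff replicate 1, and log2 1.08 (adjusted p = 0.0893) lacking ff replicate 2.

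Kcnma1, the pore-forming alpha subunit of the same channel, did not follow its beta subunit. It had 198 and 149 counts in dd, against 335 and 218 counts in ff, and was not called (log2 −0.36, SE 0.34, edgeR adjusted p = 0.521). Per length, there were 32.5 and 38.6 units of Kcnmb1 FPKM for each unit of Kcnma1 FPKM in dd, against 10.9 and 13.5 in ff. The difference between the log2 fold changes of the 2 subunits was not tested. Cacna1c, the pore of the L-type calcium channel that lets calcium into smooth muscle, averaged 120.7 ± 33.9 CPM in dd and 130.4 ± 4.33 CPM in ff (SD, n = 2 each), and was not called. Pln, the inhibitor of the calcium pump of the sarcoplasmic reticulum, averaged 6.81 ± 1.74 CPM in dd and 4.95 ± 0.56 CPM in ff and was not called either. Of the exon bases of Pln, 64.7% overlap exons of Cep85l and Gm47644 on the opposite strand, so its counts are uncertain.

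Ppp1r14a (chr7:29289308-29293801, plus strand) was the called member among 5 genes of light chain phosphorylation. Its product, once phosphorylated, blocks myosin phosphatase and so prolongs contraction. It was measured at 13.5 and 9.47 CPM in dd, against 32.5 and 28.5 CPM in ff, again with no overlap. It fell to 0.376 of the ff level (95% interval 0.259 to 0.544; log2 −1.41, SE 0.21; edgeR adjusted p = 0.0302). Ppp1r14a has a fold of 0.376 in the authors' deposited table (unadjusted p = 0.00284). The call was lost without dd replicate 2 (log2 −1.18, adjusted p = 0.0613) and without ff replicate 1 (−1.32, adjusted p = 0.1), and kept without dd replicate 1 (−1.68) or ff replicate 2 (−1.51).

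Vascular muscle also contracts through this pathway, and markers of pericytes and vascular smooth muscle were lower in the same dd libraries. Their summed level was 945.0 and 761.8 CPM in dd and 1313 and 1545 CPM in ff. By edgeR, 6 of 14 markers were called lower, against 3.86% of all tested genes, and 0 higher. Also 0 were higher at an unadjusted p under 0.05 and by DESeq2, and none of the 14 was at 0 in every library. Their part in the fall of Ppp1r14a was not tested. For every 1000 counts of Myh11 there were 5.15 and 6.28 counts of Ppp1r14a in dd, against 18.3 and 15.8 in ff.

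The kinase and the phosphatase subunits themselves differed by less than the spread between the dd libraries. Mylk, the myosin light chain kinase, averaged 1174 ± 407 CPM in dd and 1105 ± 8.15 CPM in ff (log2 0.09, adjusted p = 0.848). Ppp1r12a, the subunit that targets the phosphatase to myosin, averaged 247.2 ± 47.0 CPM in dd and 251.8 ± 14.2 CPM in ff, and its relative Ppp1r12b averaged 274.5 ± 89.2 CPM in dd and 274.9 ± 10.4 CPM in ff. Rock1, a kinase that inhibits the phosphatase, was the steadiest member, at 62.4 and 61.4 CPM in dd and 62.9 and 63.1 CPM in ff, with a log2 fold change of −0.03 (95% interval −0.23 to 0.18).

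The 5 genes of the actin and myosin filaments were not called. Acta2 (chr19:34241090-34255590) was at 4578 and 2767 CPM in dd, against 3327 and 2838 CPM in ff. Actg2, the actin typical of visceral muscle, was at 1396 and 591.0 CPM in dd, against 879.1 and 654.4 CPM in ff. In both genes dd replicate 1 was the highest and dd replicate 2 the lowest of the libraries, so the groups overlapped. The log2 fold changes were 0.25 (95% interval −0.47 to 0.97) for Acta2 and 0.37 (−0.73 to 1.48) for Actg2. Their sign depended on the dd library left out. Without dd replicate 1 they were −0.15 for Acta2 and −0.37 for Actg2, and without dd replicate 2 they were 0.57 and 0.87.

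Myl9, the regulatory light chain that the kinase phosphorylates, was at 1195 and 758.9 CPM in dd, against 820.3 and 722.7 CPM in ff, and dd replicate 2 lay between the ff libraries. Myh11 averaged 2067 ± 788 CPM in dd and 1790 ± 22.3 CPM in ff, with libraries in dd again on either side of those in ff. Myl6, the light chain shared with non-muscle myosin, was higher in both dd libraries than in ff, at 1448 ± 196.0 against 1145 ± 41.3 CPM, and was not called (log2 0.34, 95% interval −0.04 to 0.72, edgeR adjusted p = 0.208). Of the windows of 50 bases in the longest coding transcript of Myl6, 18.5% also occur in transcripts of other genes, including Gm5526 and Gm10080, so its counts are uncertain; for Acta2 and Actg2 the shares were 0.352% and 0%.

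The 7 regulators of the thin filament had log2 fold changes between −0.03 and 0.56, and all 7 overlapped between the groups. Tpm2, a tropomyosin that lies along actin, averaged 1157 ± 448 CPM in dd and 852.2 ± 6.31 CPM in ff (log2 0.44, adjusted p = 0.354). Cnn1, the calponin that restrains actomyosin, averaged 657.0 ± 247.1 CPM in dd and 526.9 ± 113.6 CPM in ff. Tpm1, the caldesmon gene Cald1, the smoothelin gene Smtn and the leiomodin gene Lmod1, which nucleates actin, had log2 fold changes of 0.14, −0.03, 0.19 and 0.30, and none was called.

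Tagln, the transgelin gene and a common smooth muscle marker, was listed at a far lower level than its neighbours in the group. Its mean over the 4 libraries was 5.60 FPKM, against 216.0 FPKM for Cnn1 and 104.6 FPKM for Smtn. It was at 18.3 and 8.29 CPM in dd, against 10.5 and 7.48 CPM in ff (log2 0.56, adjusted p = 0.427). Of the exon bases of Tagln, 67.9% overlap exons of Pcsk7 and Gm48529 on the opposite strand in GENCODE M21, a larger share than for any of the other 35 members. How shared bases were counted is not stated, and the part of this overlap in the low level was not tested.

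Genes of the intermediate filaments and of the dense bodies, the sites where actin is anchored, were not called either. Des, the muscle intermediate filament desmin, averaged 853.3 ± 354.2 CPM in dd and 918.6 ± 224.2 CPM in ff, and its partner Synm averaged 90.9 ± 37.7 CPM in dd and 90.7 ± 21.3 CPM in ff. Csrp1, a protein with LIM domains that binds actin bundles, was at 1447 and 1013 CPM in dd, against 1237 and 805.0 CPM in ff, so that both groups had 1 high and 1 low library and overlapped. Actn1, the actin cross-linker, averaged 507.8 ± 79.6 CPM in dd and 394.5 ± 27.7 CPM in ff and lay above ff in both dd libraries, without being called (log2 0.36, 95% interval −0.02 to 0.75, edgeR adjusted p = 0.187). The filamin gene Flna, the vinculin gene Vcl, Synpo2, Pdlim3, Pdlim7, Ldb3 and Pgm5 had log2 fold changes between −0.24 and 0.33, of which Ldb3 alone lacked overlap between the groups. Exons on the opposite strand overlap 25.5% of the exon bases of Vcl and 16.3% of those of Smtn.

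Of the 2 transcription factors of the contractile program, Srf had a log2 fold change above 0 and Myocd one below 0, and neither was called. Srf, the factor that binds the CArG box, was at 167.1 and 121.4 CPM in dd, against 115.5 and 114.7 CPM in ff (log2 0.32, SE 0.17, edgeR adjusted p = 0.269). Myocd, its smooth muscle cofactor, was at 6.73 and 5.58 CPM in dd, against 8.59 and 7.32 CPM in ff (log2 −0.37, SE 0.21, edgeR adjusted p = 0.294). Neither gene overlapped between the groups. Of all tested genes 62.8% had groups without overlap, against 11 of the 36 members (30.6%), 7 of them higher in dd, against 31.6% of all genes, and 4 lower, against 31.3%.

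RefSeq promoters were at hand for 31 of the 36 members, and not for Actg2, Myh11, Tagln, Myocd and Rock1. Only boxes matching CCWWWWWWGG (W being A or T) at every base were counted, so boxes that differ at a base were missed. A CArG box lies within 250 bases before and 50 after a RefSeq start in 5 of these 31 genes (16.1%), namely Ldb3, Myl6, Myl9, Srf and Vcl, and in 1.81% of all 27025 genes with such a window. The AP-1 motif was found in 4 of 31 (Cald1, Gja1, Ldb3 and Mylk) (12.9%), against 8.97% of all genes. Both strands were covered, since these motifs read the same on each. A match describes letters, not binding, and the 5 genes with a CArG box were uncalled, like 23 of the other 26. The windows below show the CArG boxes in capitals, 5′ to 3′ on the strand of the gene, for Srf (chr17:46556193-46556272, with 2 boxes), Myl9 (chr2:156775274-156775353), Vcl (chr14:20929148-20929227) and Ldb3 (chr14:34588683-34588762).
Srf: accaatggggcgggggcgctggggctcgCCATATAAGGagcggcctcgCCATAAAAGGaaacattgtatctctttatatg
Myl9: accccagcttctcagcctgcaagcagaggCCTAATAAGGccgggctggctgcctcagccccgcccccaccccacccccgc
Vcl: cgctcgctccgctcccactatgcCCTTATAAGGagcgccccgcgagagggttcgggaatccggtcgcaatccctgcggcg
Ldb3: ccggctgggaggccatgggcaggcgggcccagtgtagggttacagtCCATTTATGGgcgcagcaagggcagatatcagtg

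**Figure D3:**
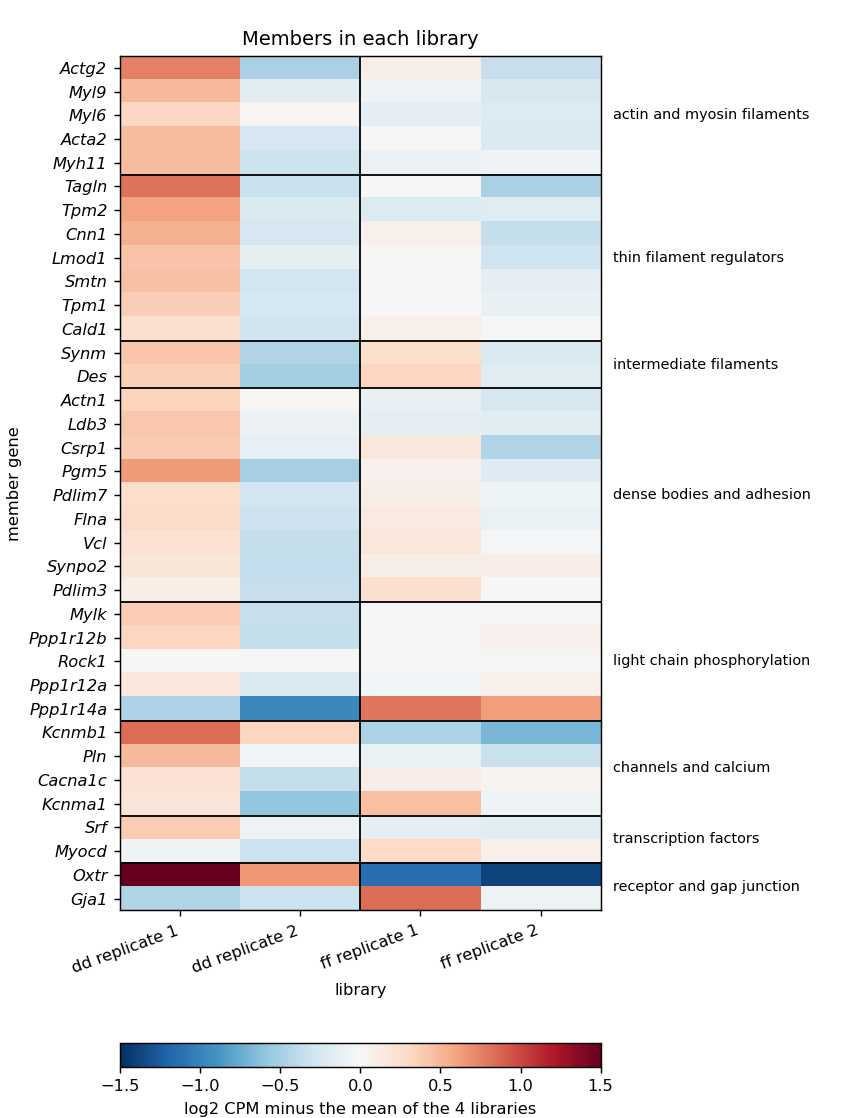
Log2 CPM of the 36 members in each library, minus the mean of the 4 libraries (colour), with dd replicates left of ff replicates and members grouped by role. The column of dd replicate 1 holds the highest value for 30 members, and dd replicate 1 was the highest library in 24.8% of all tested genes. The column of dd replicate 2 holds the lowest value for 23 members, a count not made over all tested genes.

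Most members differed by more between the dd libraries than between the groups. Of the 36, 35 were higher in dd replicate 1 than in dd replicate 2, with a median log2 ratio of 0.58, while 50.1% of all tested genes were higher in dd replicate 1 (median 0.000964). The exception was Gja1. For 28 members this ratio was larger in size than the log2 fold change between the groups. For 18 members dd replicates 1 and 2 were the highest and the lowest of the 4 libraries. These counts were not made over all tested genes, so the share to be found among any genes is not known. The median size of the ratio, without its sign, was 0.58 over the members and 0.18 over all tested genes. The gap was widest in Actg2 (log2 1.24), Oxtr (1.22), Tagln (1.15) and Pgm5 (1.13), and nearly absent in Rock1 (0.02). Between the ff libraries the median log2 ratio of replicate 1 over replicate 2 was 0.19, and 30 members were higher in replicate 1, as were 47.6% of all tested genes (median −0.01). The members thus leaned the same way between the ff libraries, by less.

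The sign of the median log2 fold change of the members depended on which dd library was left out. With dd replicate 2 left out it was 0.45, with dd replicate 1 left out it was −0.23, and with all libraries it was 0.16. It was 0.23 without ff replicate 1, 0.08 without ff replicate 2, and −0.07 with the filament scaling. What set the sign was not tested. Without dd replicate 2, Oxtr and Kcnmb1 were called, and without dd replicate 1, Oxtr and Ppp1r14a. The geometric mean of the 14 filament members was 733.4 and 432.9 CPM in dd and 537.0 and 452.3 CPM in ff.

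Of 6 tested markers of the mesothelium, the lining of the outer uterine surface, 4 had dd replicate 2 as their lowest library and 2 did not. The counts given here are raw, not scaled for library size. Upk3b had 1491 and 512 counts in dd replicates 1 and 2, against 1451 and 1542 in ff. Lrrn4 had 516 and 91 counts in dd, against 454 and 517 in ff, and Msln had 690 and 209 in dd, against 466 and 495 in ff. Muc16 had 218 and 76 counts in dd, against 264 and 255 in ff. Thus dd replicate 2 was the lowest library in these 4 genes, as it was for 23 of the 36 members, a count not made over all tested genes. The geometric mean of the 14 filament members was 432.9 CPM in dd replicate 2, near the 452.3 CPM of ff replicate 2. In dd replicate 1 it was 733.4 CPM, above the 537.0 CPM of ff replicate 1. In the other 2 markers dd replicate 2 was not the lowest library. Upk1b was at 17.2 and 14.7 CPM in dd, against 9.79 and 9.54 CPM in ff. Wt1, which uterine stroma also expresses, was lower in dd replicate 1, at 107.4 and 117.4 CPM in dd, against 158.3 and 150.4 CPM in ff. The median log2 ratio of dd replicate 1 over dd replicate 2 was 1.89 over the 6 markers, and 5 of them were higher in dd replicate 1. Over all 7 listed markers, of which Wt1 had the highest level in each library, the summed level was 248.0 and 161.4 CPM in dd and 247.2 and 250.1 CPM in ff, and 0 of the 6 were called by edgeR between the groups, or 1 higher and 1 lower at an unadjusted p under 0.05 and by DESeq2. Of 9 tested skeletal and cardiac muscle markers, 6 were higher in dd replicate 1 than in dd replicate 2, against 50.1% of all tested genes. The median log2 ratio of the 9 was 0.56. In that list the skeletal muscle gene Ckm, picked after its values were seen, had 104 and 8 raw counts in dd and 23 and 20 in ff. The part of the mesothelium in the muscle values was not tested.

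**Figure D4:**
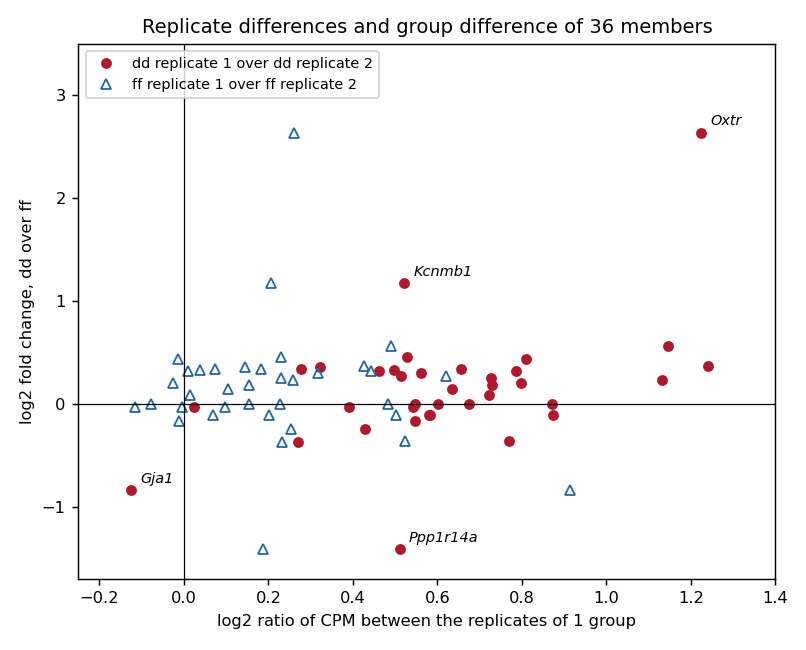
Log2 fold change of each member, dd over ff (vertical axis), against the log2 ratio of CPM between the replicates of dd (filled circles) and of ff (open triangles). All dd points but Gja1 lie right of 0, with a median ratio of 0.58, while most points lie near 0 on the vertical axis.

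Other genes of uterine contraction were read from lists that hold none of the members. Of 51 tested genes of smooth muscle contraction, 2 were called higher and 1 lower, with a median log2 fold change of −0.02. Over all tested genes, 4.52% were called higher and 3.86% lower. Myl12b, a regulatory light chain of non-muscle and smooth muscle myosin, rose to 410.9 ± 49.9 CPM in dd, against 223.6 ± 34.7 CPM in ff (log2 0.88). Its counts are uncertain, since 26.7% of its exon bases overlap a further annotated gene of the same name on the same strand. Cap2, which turns over actin filaments, rose to 103.6 ± 5.08 CPM in dd, against 68.7 ± 5.68 CPM in ff (log2 0.59). Gucy1b1, a subunit of the guanylate cyclase through which nitric oxide relaxes muscle, fell to 14.5 ± 1.44 CPM in dd, against 27.5 ± 1.95 CPM in ff (log2 −0.92). In this list 40 of 51 genes were higher in dd replicate 1 than in dd replicate 2, with a median log2 ratio of 0.23. Acta1, the skeletal muscle actin, was not called. It had 3333 and 2008 raw counts in dd and 5684 and 4329 in ff, not scaled for library size.

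Of 38 tested genes for other contracting and relaxing signals and their receptors, edgeR called 0 higher and 6 lower. Over all tested genes it called 4.52% higher and 3.86% lower. The median log2 fold change of the list was −0.29. At an unadjusted edgeR p under 0.05, 3 were higher and 11 lower, against 14.9% and 14.4% of all tested genes. The endothelin receptor genes Ednra (33.7 ± 0.462 CPM in dd, 59.6 ± 2.78 CPM in ff) and Ednrb (36.6 ± 4.74 CPM in dd, 60.1 ± 4.60 CPM in ff) fell. So did the prostaglandin receptor genes Ptgfr, at 6.95 ± 1.24 CPM in dd and 15.2 ± 0.164 CPM in ff, and Ptger3, at 33.6 ± 7.86 CPM in dd and 64.9 ± 2.96 CPM in ff. Adra2a, an adrenergic receptor gene, and Rgs2, an inhibitor of the G protein that carries oxytocin signals, fell by 1.60 and 1.83 on the log2 scale. DESeq2 called 1 gene of this list higher and 8 lower, against 8.55% and 7.65% of all tested genes.

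Among 40 tested genes of excitability, calcium and gap junctions, the median log2 fold change was −0.22. Here 2 were called higher, against 4.52% of all tested genes, and 6 lower, against 3.86%. The lower ones were the T-type calcium channel gene Cacna1h (log2 −0.90), the auxiliary calcium channel gene Cacna2d1 (−0.58), the potassium channel genes Kcnn3 (−0.85) and Kcnk3 (−1.23), and both subunits of the ATP-sensitive potassium channel of vessel muscle, Kcnj8 (−0.81) and Abcc9 (−0.99), which also stand in the pericyte list. The higher ones were the potassium channel gene Kcnq1 (1.51) and the inositol trisphosphate receptor gene Itpr3 (0.65). Of 30 regulators around serum response factor, 1 was called higher (Klf5, 1.02) and 5 lower (median −0.38): Mamstr, a myocardin-family cofactor, fell by 0.81, Mef2a by 0.62, Notch3 by 1.10, Zeb1 by 0.62 and Zeb2 by 0.96 on the log2 scale. Notch3 also stands in the pericyte list. The myocardin-related factors Mrtfa and Mrtfb averaged 56.1 ± 1.65 and 110.9 ± 4.72 CPM in dd, against 49.6 ± 2.41 and 119.9 ± 13.4 CPM in ff, and were not called.

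**Figure D5:**
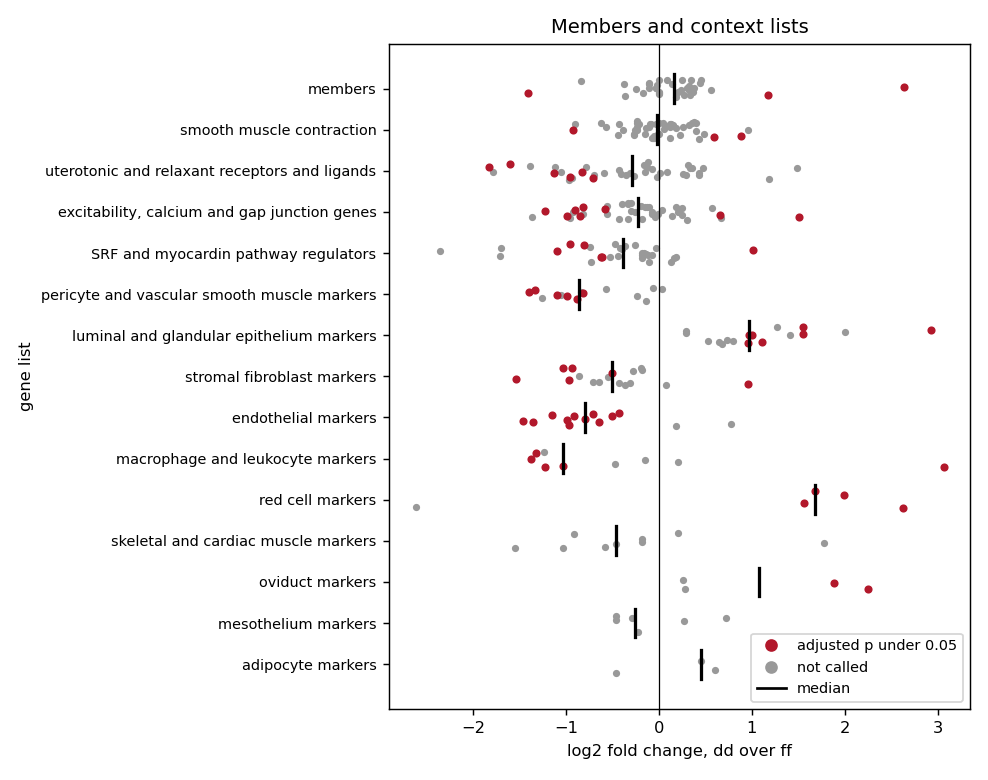
Log2 fold change, dd over ff (horizontal axis), of each tested gene of the members and of 14 context lists down the page, with called genes in red and the median of each list as a black bar. The members are centred near 0.16, the epithelial markers near 0.97 and the pericyte and vascular smooth muscle markers near −0.86.

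Markers of the other cell types of the uterus differed between the groups beside these values. Of all tested genes, edgeR called 4.52% higher and 3.86% lower, and DESeq2 8.55% and 7.65%. At an unadjusted edgeR p under 0.05 the shares were 14.9% and 14.4%. Epithelial markers were called higher by edgeR in 7 of 17 and lower in 0 (also 0 lower at an unadjusted p under 0.05 and by DESeq2), with summed levels of 3834 and 4434 CPM in dd and 1698 and 1925 CPM in ff. Endothelial markers were called lower by edgeR in 11 of 13 and higher in 0 (1 higher at an unadjusted p under 0.05 and by DESeq2), with 1267 and 1255 CPM in dd and 2011 and 1883 CPM in ff. Stromal markers were called lower in 5 of 17 and higher in 1, leukocyte markers lower in 4 of 9 and higher in 1, red cell markers higher in 4 of 5, and oviduct markers higher in 2 of 4. Skeletal and cardiac muscle markers were called in 0 of 9 by edgeR, with 0 higher and 2 lower at an unadjusted p under 0.05 and 1 lower by DESeq2; Myh1, Myh2, Myh4, Myod1 and Myog had 0 counts in all libraries. Of 3 tested adipocyte markers 0 were called by edgeR or DESeq2, with 1 lower at an unadjusted p under 0.05. Their part in the values of the members was not tested.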

How the data were processed

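Whole uteri were sequenced as poly-A RNA, extracted with TRIzol and prepared with an Illumina TruSeq kit per the labels' protocols and the series design text. Per the submitters' processing notes, STAR and edgeR were run on mm10, with no versions; for the read counter, the annotation and strandedness, details were not given in the sources used here. The deposited table holds raw counts per gene and library, a rescaled signal column for each library (not used here), FPKM values per the file headers (RPKM in the series design text), a fold, which is the ratio between dd and ff, and the authors' p-value, unadjusted, from a test that is not named.

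Counts were compared with edgeR 4.0.16 (R 4.3.3) across all genes after filterByExpr, with TMM factors, all 4 libraries and no block, by the quasi-likelihood test with Benjamini-Hochberg adjustment over 18530 genes, calling at an adjusted p under 0.05. The script was tested on simulated counts. CPM are counts over the TMM-scaled library size. Replicates differed by more than sampling noise (chi-square per degree of freedom 36.0 in dd, 35.3 in ff). Alternatives used DESeq2 1.42.0 and limma 3.58.1 among others. Members and lists were chosen with earlier results of these data known, and counts over them are descriptions. All members are named; per-library values are given for those called, with an unadjusted p under 0.05 or with the 4 highest mean FPKM, and for Srf, Myocd, Oxtr and Gja1; other values in single libraries were chosen after they were seen. Positions and exon overlaps are from GENCODE M21, on the same build, and promoters from RefSeq.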

Additional observations from a re-analysis of the deposited data

How the results depend on the processing

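Of all tested genes, 1554 were called, and 53.9% of these were higher in dd; with library size alone 42.4% of 1771 were. The count was 2947 without a filter, 3001 with the DESeq2 Wald test, 828 with the filament scaling chosen after seeing the data, which moved the median of all genes to −0.15, and between 90 and 1198 with 1 library left out, fewest without ff replicate 1. Of the members, 3 were called, 1 by limma-trend on log2(FPKM + 0.5), 1 with the filament scaling, and between 0 and 2 with 1 library left out, 0 of them without ff replicate 1. Their median log2 fold change lay between −0.23 and 0.45 with 1 library left out. A fit with 1 library in a group assumes that it varies like the other group. The causes of these shifts were not tested.

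Oxtr also missed the threshold with limma-voom (adjusted p = 0.0644) and limma-trend on log2(FPKM + 0.5) (0.055), where Kcnmb1 missed it too (0.0516). With the filament scaling Kcnmb1 (log2 0.97, adjusted p = 0.562) and Ppp1r14a (log2 −1.62, adjusted p = 0.0731) kept their sign and were not called. Across the 15 alternatives no called member changed direction, and 22 of the 33 uncalled members changed sign in at least 1. With a replicate block, 1531 genes and the same number of members, 3, were called. The labels do not say that same-numbered libraries belong together, and over 18530 genes their deviations correlated at 0.00873; among the members, replicate 1 was above replicate 2 in 35 of 36 in dd and in 30 of 36 in ff.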
